A study of Mus musculus with 9 samples.

Results

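RNA sequencing of unstrained B16 cells, a mouse melanoma cell line derived from the pigment cell lineage, was described here as a baseline. The members were the 3 libraries labelled as control, called CTL 1, CTL 2 and CTL 3, out of 9 libraries in all, and they were chosen by that label alone. Every library came from wild-type B16 cells grown in DMEM with fetal bovine serum and antibiotics on a flexible PDMS film and harvested on day 3. The CTL cells were neither strained nor treated. The other libraries were 3 of cells strained cyclically for 72 h (MS) and 3 of cells given blebbistatin, an inhibitor of myosin II, at 100 ng/mL for 72 h (Blebb.). For the latter, the labels give blebbistatin without straining, whereas the study's figure names both. All libraries came from 1 cell line without a stroma, an immune compartment or a skin environment, so the values describe B16 cells in culture. The labels call the replicates parallel experiments and do not say whether they were separate cultures, so the spread between them may be technical.

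Melanocytes make melanin in melanosomes, organelles related to lysosomes. Tyrosinase and its relatives oxidize tyrosine derivatives into pigment along fibrils made of the protein PMEL, and transporters set the pH and the ion content of the organelle. The transcription factor MITF, which works with SOX10 and PAX3, binds E-box elements in the promoters of pigment genes, and the variant known as the M-box is typical of tyrosinase family genes. Melanoma cells often keep this program while losing cell cycle brakes such as the products of the Cdkn2a locus.

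The deposited value of a gene is its FPKM, the fragments per kilobase of transcript scaled to the number of mapped fragments. Since it accounts for transcript length, levels can be set between genes. Gene values are given below in the order CTL 1, CTL 2 and CTL 3. A gene was called present at 1 FPKM or more in each of the 3 libraries and near 0 under 0.1 FPKM in each of them.

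The promoters of the pigment genes are shown because 4 of these 16 genes were among the 25 most abundant of the transcriptome. Of the genes with a window below, Tyrp1 and Dct were among those 25, and Tyr, Trpm1 and Slc24a5 were not. In the RefSeq promoters of build GRCm38.p6, which run from 250 bases before to 50 bases after the start site, 11 of the 16 pigment genes had an entry, and 5 of them (45.5%) held the M-box TCATGTG on either strand. The M-box was in 1165 of all 27025 genes with a promoter (4.31%). The other E-box searched, CACGTG, shares no position with TCATGTG and was found in 2 of the 11 (18.2%) against 8.09% of all genes. In the windows below the letters of the M-box or of its reverse complement are in capitals, and the first base of the match lies 22 bases before the start site in Tyr, 47 in Tyrp1, 151 in Dct, 142 in Trpm1 and 13 in Slc24a5. The promoter of Dct holds another match, 232 bases before the start site and outside the window shown. Each window is written 5′ to 3′ on the strand of its gene.
Tyr, chr7:87493513-87493564, minus strand: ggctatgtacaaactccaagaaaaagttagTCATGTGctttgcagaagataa
Tyrp1, chr4:80834136-80834202, plus strand: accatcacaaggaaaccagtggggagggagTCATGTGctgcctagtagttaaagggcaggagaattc
Dct, chr14:118052361-118052427, minus strand: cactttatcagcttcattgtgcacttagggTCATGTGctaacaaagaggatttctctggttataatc
Trpm1, chr7:64153663-64153729, plus strand: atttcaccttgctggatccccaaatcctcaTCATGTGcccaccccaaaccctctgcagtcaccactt
Slc24a5, chr2:125068084-125068126, plus strand: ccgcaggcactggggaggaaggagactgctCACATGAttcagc

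A second set of windows is shown for targets of ATF4 and CHOP and for Aars, a tRNA synthetase gene, because the ATF4 and CHOP targets were the list farthest above in CTL 1. ATF4 and CHOP are transcription factors of the integrated stress response, in which a block on translation initiation raises the synthesis of ATF4. ATF4 and its C/EBP partners bind a composite element (CARE) with the letters TGATGNAA, given in capitals below on either strand, and the window of Slc7a11 holds it at 2 places. The element was in 9 of 20 target genes (45%) and in 1219 of all 27025 genes (4.51%). It was in 5 of 13 aminoacyl-tRNA synthetase genes with a promoter entry (38.5%). Of the genes of amino acid synthesis and transport with an entry, 5 of 18 (27.8%) held it. A match is a description of these letters and not a binding site.
Chac1, chr2:119351019-119351086, plus strand: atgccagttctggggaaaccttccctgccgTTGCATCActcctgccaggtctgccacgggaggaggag
Asns, chr6:7693210-7693262, minus strand: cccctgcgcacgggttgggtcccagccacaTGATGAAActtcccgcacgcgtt
Nupr1, chr7:126625543-126625610, minus strand: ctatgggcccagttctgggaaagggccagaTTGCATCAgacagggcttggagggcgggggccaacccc
Slc7a11, chr3:50443642-50443709, minus strand: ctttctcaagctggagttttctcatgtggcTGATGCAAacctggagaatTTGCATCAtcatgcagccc
Aars, chr8:111033700-111033767, plus strand: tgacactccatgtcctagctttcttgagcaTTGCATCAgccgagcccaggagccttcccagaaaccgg

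The control libraries were not equally alike. The FPKM values summed to 484093, 452028 and 443356, and the number of genes at 1 FPKM or more was 9529, 10131 and 10235. Across genes, log2(FPKM + 1) correlated with r = 0.9969 between CTL 2 and CTL 3, whereas CTL 1 reached 0.9834 with CTL 2 and 0.9788 with CTL 3. The library nearest to CTL 1 was Blebb. 2 (r = 0.9978), the nearest to CTL 2 was MS 2 (0.9975) and the nearest to CTL 3 was Blebb. 3 (0.998). These r values run over genes, which are not independent replicates, and no library was identical to another. CTL 1 therefore stood apart from the others of its group, and counts below are also given for CTL 2 and CTL 3 without it. The files give no read numbers, so the depth is unknown and no counting error can be attached to a value.

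Of 22972 genes and loci in the files, 9291 (40.4%) were present in the CTL cells and 9976 were near 0. These are the background for the counts of present and near 0 genes in the lists below. Without CTL 1, 10024 were present. A value of exactly 0 in each CTL library was listed for 7706 genes (33.5%), and 6489 of these were at 0 in all 9 libraries. The remaining 1217 were above 0 in some MS or Blebb. library, but only 5 of them reached 1 FPKM there. No gene was present in every CTL library and under 1 FPKM in every MS and Blebb. library (0 genes). The sum was carried by few genes. Those at 1000 FPKM or more numbered 65, 59 and 51 in the CTL libraries and held 34.6%, 26.0% and 24.0% of the summed FPKM. The genes between 1 and 10 FPKM numbered 4596, 4948 and 4912 and held 4.13%, 4.81% and 4.99%.

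The most abundant transcripts of the unstrained cells belonged to iron storage, the mitochondrial genome, translation, pigment and glycolysis. The 25 genes with the highest mean held 23.3%, 16.4% and 16.4% of the summed FPKM. Ftl1, the light chain of the iron store ferritin, ranked first with 10341, 11126 and 9407 FPKM, a mean of 10291 ± 861 (SD, n = 3). Its partner Fth1, the heavy chain, ranked sixth with 5069, 4016 and 3683. Both chains together held 3.18%, 3.35% and 2.95% of the sum.

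The mitochondrial genome gave 7 of the 25 leading genes and the widest spread among them. mt-Co1, the catalytic subunit of cytochrome c oxidase, reached 18582, 5034 and 5840.0 FPKM, and the value in CTL 1 was over 3 times that of either other library. mt-Co3 of the same complex had 8461, 3021 and 2548, and mt-Nd1, a subunit of complex I, had 6569, 2606 and 3667. The ATP synthase subunits went the other way. mt-Atp6 had 2089.8, 2586 and 2913 and mt-Atp8 had 1318, 2001 and 2165, the lowest value of each in CTL 1. The 13 protein genes of the mitochondrial genome held 10.8%, 5.07% and 5.84% of the sum, against 5.98% to 11.8% in the MS and Blebb. libraries.

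Of the gene classes summed here, translation held the largest share and the most even one. The 86 cytosolic ribosomal protein genes held 13.8%, 13.7% and 13.7% of the sum, and 83 of them were present. Eef1a1, which brings aminoacyl-tRNA to the ribosome, had 7740.1, 4774 and 5593 FPKM. Eef2, which moves the ribosome along, had 3052, 1829 and 1817. Rplp1 and Rplp0, proteins of the ribosomal stalk, had 3235, 2576 and 2605 (Rplp1) and 3280.3, 2134 and 2096 (Rplp0). Rps15, Rpl32 and Rps2 were the other ribosomal members of the leading 25, with means of 2193 ± 289, 2189 ± 98.2 and 1980.4 ± 87.6.

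Glycolysis gave 3 of the 25, and its 30 listed genes held 2.73%, 2.98% and 2.58% of the sum. Eno1 (enolase) had 2907, 3781 and 2922 FPKM and Aldoa (aldolase) had 2962, 2056 and 1575. Pkm (pyruvate kinase) was the most even of the leading genes at 2086, 2046 and 2061. Ldha, which turns pyruvate into lactate, had 756, 1038 and 948. The exporter genes of lactate differed in level, Slc16a1 at 12.3, 28.2 and 28.9 and Slc16a3 at 0.571, 0.527 and 0.367. The glucose transporter Slc2a1 had 18.9997, 21.04 and 21.1. The remaining leading genes were Gstp1, a glutathione transferase, at 3177, 2934 and 1694, and the cytokine Mif, at 2271, 2089.6 and 1719.5. Several of these families have near-identical copies or pseudogenes, and how shared reads were assigned is not given in the sources used here, so their levels are uncertain to that extent.

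**Figure D1:**
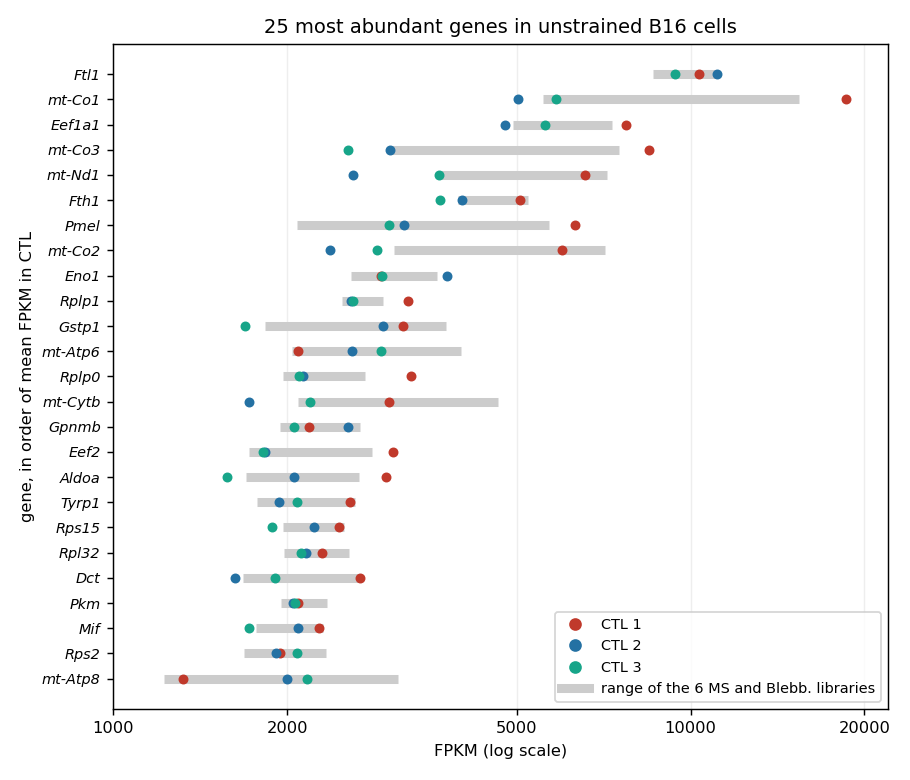
The 25 genes with the highest mean FPKM in unstrained B16 cells, in order of the mean, with 1 point per CTL library and a gray bar for the range of the 6 MS and Blebb. libraries (FPKM, log scale). Ftl1 leads at 9407 to 11126 FPKM, and CTL 1 lies to the right for mt-Co1 (18582 against 5034 and 5840) and Pmel (6318 against 3185 and 3007).

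The lineage markers matched the labelled cell type. All 5 markers taken for melanocytes, Tyrp1, Dct, Pmel, Mlana and Sox10, were present at over 200 FPKM in every CTL library. Pmel (chr10:128704195-128720238, plus strand), the scaffold of the melanosome fibrils, had 6318, 3185 and 3007 FPKM and a mean of 4170.1 ± 1862 (SD, n = 3). Tyrp1 (chr4:80834123-80851719, plus strand) and Dct (chr14:118012790-118052244, minus strand), enzymes of eumelanin synthesis, had 2574, 1939 and 2078 (Tyrp1) and 2678, 1624 and 1904 (Dct). Mlana (chr19:29697824-29708634, plus strand), a small membrane protein of early melanosomes, had 970.2, 1214 and 1376, with its lowest value in the library where Pmel was highest. Sox10 (chr15:79154908-79165240, minus strand), the neural crest factor that maintains the lineage, had 308, 273 and 233.

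All 16 pigment genes were present and together held 3.49%, 2.59% and 2.57% of the summed FPKM. Gpnmb, a relative of Pmel in the melanosome membrane, had 2182, 2546 and 2059 FPKM. Tyr itself, the rate-limiting enzyme whose promoter holds an M-box above, was far lower than its relatives at 75.99, 40.2 and 47.1. The ion and solute transporters of the melanosome covered a wide range. Slc24a5, a potassium-dependent sodium/calcium exchanger, had 584, 211 and 229. Slc45a2, a sugar and proton transporter of the organelle, had 512, 258 and 250.3. Oca2, a melanosomal chloride channel, was among the lowest at 11.8, 2.69 and 2.08. The copper transporter Atp7a, which loads tyrosinase, had 2.63, 4.59 and 4.79. Trpm1, a cation channel gene that hosts a microRNA of the lineage, had 401, 138 and 119.

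The libraries split these genes into sets. CTL 1 was above both other libraries for 10 of the 16 and below both for 4, which were Mlana, Mreg, Mfsd12 and Atp7a. Mreg, which acts in melanosome transfer, had 21.1, 32.4 and 33.1. Cited1, a transcriptional coactivator, did not follow the others and was low in CTL 3, at 424, 429 and 182. The 17 genes of melanosome biogenesis and transport were all present at lower levels, with a median over the list of 19.5 FPKM. Rab38, a GTPase that sorts cargo to melanosomes, led at 319.6, 234 and 200.5. The tripartite complex that holds melanosomes on actin was present throughout, Rab27a at 52.6, 36.9 and 43.9, Mlph at 144, 189 and 186 and Myo5a at 8.86, 16.2 and 19.8. Lyst, mutated in Chediak-Higashi syndrome, was the lowest by its mean at 1.89, 1.89 and 2.58.

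Among 16 transcription factors of the lineage, 9 were present (56.25%, against 40.4% of all genes). Mitf (chr6:97807052-98021349, plus strand), the master regulator of pigment genes, had 9.50, 27.2 and 28.8 FPKM. Its lowest value was in CTL 1, the library where most pigment genes were highest. Pax3, which acts upstream of Mitf, had 16.2, 20.9 and 21.7. Tfap2a, a factor of neural crest and pigment genes, had 7.003, 12.2 and 18.3. The factors tied to differentiation and invasion switches were uneven in level. Zeb2 had 1.92, 8.19 and 9.52 and Snai2 had 0.192, 0.357 and 0.564, while Zeb1, Lef1 and Tfap2b were near 0. Foxd3, a neural crest factor, was listed at 0 in each CTL library. Sox9 was present at 1.58, 1.30 and 1.45, far under Sox10. Tbx2 and Tfe3 reached 65.8, 79.6 and 41.9 (Tbx2) and 42.8, 32.9 and 30.1 (Tfe3).

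**Figure D2:**
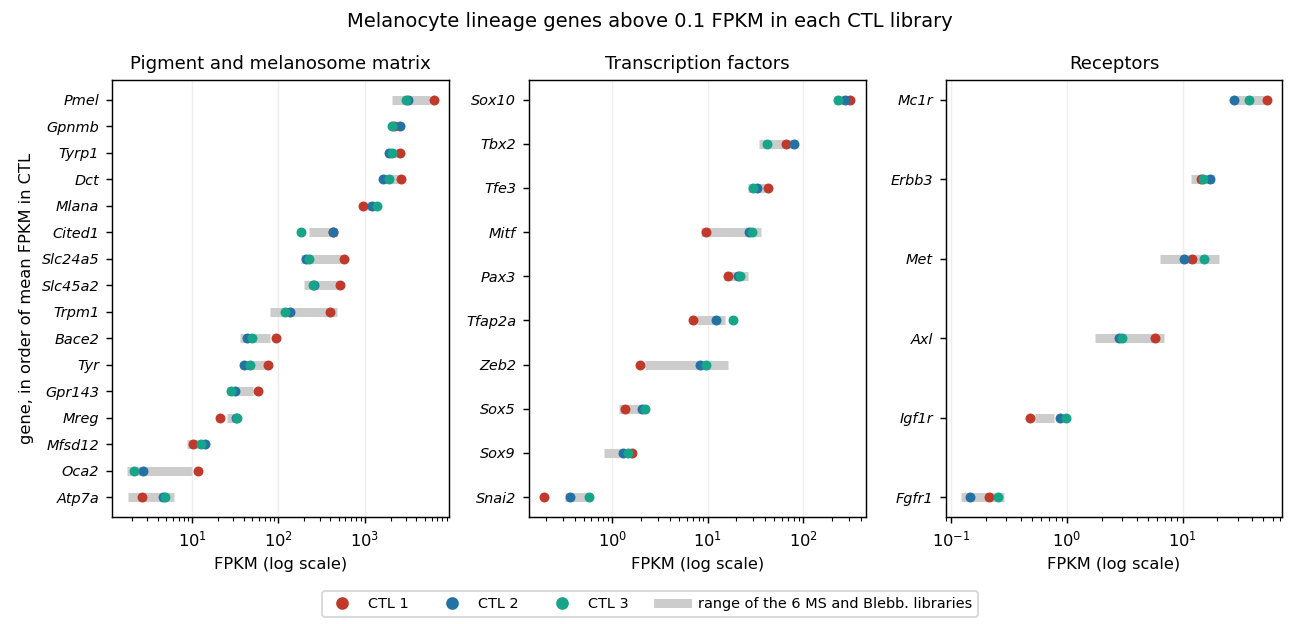
FPKM (log scale) of the melanocyte lineage genes above 0.1 FPKM in each CTL library, with pigment and melanosome matrix genes, transcription factors and receptors in separate panels, 1 point per CTL library and a gray bar for the range of the 6 MS and Blebb. libraries. CTL 1 is highest for Pmel, Slc24a5, Trpm1 and Oca2 and lowest for Mitf (9.50, 27.2 and 28.8) and Zeb2.

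Markers of other cell types were low, with glial genes as the exception. None of the 8 fibroblast, 8 macrophage and leukocyte, 8 keratinocyte and epithelial, 8 endothelial or 8 T and B cell markers was present (0 in each list). All keratinocyte and epithelial and all endothelial markers were near 0, as were 7 of 8 macrophage and leukocyte, 7 of 8 T and B cell and 4 of 8 fibroblast markers. The other fibroblast markers lay between, with Pdgfrb, the PDGF receptor of mesenchymal cells, the highest at 0.765, 0.623 and 0.667 FPKM. The defining genes Col3a1, Dcn, Ptprc, Csf1r, Krt5, Krt14, Cdh5, Kdr and Cd3e were listed at 0 in each CTL library. The highest of these markers by its mean was Lyz2, a lysozyme of myeloid cells, with 0.407, 0.542 and 1.33. The summed FPKM over the macrophage list was 0.407, 0.549 and 1.33, against 0.559 to 1.49 in the MS and Blebb. libraries. Of 8 Schwann cell and glial markers, 6 were present (75%, against 40.4% of all genes). S100b, a calcium-binding protein also used as a melanoma marker, had 87.3, 59.6 and 56.7. Mbp, the myelin basic protein, had 43.98, 46.9 and 34.6. Erbb3, the neuregulin receptor of glia and melanocytes, had 14.4, 17.2 and 15.2. Pmp22, another myelin protein, had 16.8, 24.2 and 37.2, and the glial filament gene Gfap had 5.06, 2.95 and 2.27. Sox2 was listed at 0. In bulk RNA, few cells of a type and little RNA per cell cannot be told apart.

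The receptors of the lineage were present in part. Mc1r, the melanocortin receptor that drives eumelanin through cAMP, had 53.9, 28.1 and 37.4 FPKM. Met, the hepatocyte growth factor receptor, had 12.2, 10.3 and 15.4, and Axl, a TAM family kinase, had 5.76, 2.84 and 3.02. Kit, the receptor on which melanoblasts depend, was near 0 at 0, 0.0215 and 0.0872. Ednrb, the endothelin receptor of the lineage, and Egfr were listed at 0 in each CTL library. Ngfr, a marker of neural crest-like melanoma states, was near 0 at 0.0109, 0.00706 and 0.0414.

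Of 53 receptor tyrosine kinases, 13 were present (24.5%, against 40.4% of all genes), 27 were near 0 and 17 of those were at 0. The leading members were Ryk, a Wnt receptor without kinase activity, at 41.2, 31.9 and 40.2, and Ddr1, a collagen receptor, at 29.9, 36.2 and 39.6. Ephb4, an ephrin receptor, had 12.8, 12.9 and 12.2. Erbb2, the partner of Erbb3, had 8.80, 8.39 and 9.01. Fgfr1 was at 0.213, 0.146 and 0.252, Pdgfra at 0.0490, 0.129 and 0.127 and Igf1r at 0.476, 0.876 and 0.977, all under 1 FPKM in every CTL library. The receptors of vascular growth factors, Flt1, Kdr and Tek, were listed at 0.

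Of 44 G protein-coupled receptors, 6 were present (13.6%, against 40.4% of all genes) and 27 were near 0. Adgrg1, an adhesion receptor, led with 72.5, 52.05 and 50.9 FPKM. Gpr143, a receptor inside the melanosome membrane, had 58.1, 31.2 and 28.2, and Smo, the signal transducer of Hedgehog, had 23.5, 29.1 and 33.2. S1pr2, a sphingosine 1-phosphate receptor, was even at 16.5, 16.3 and 15.97, while S1pr1 and Lpar1 were listed at 0. The chemokine receptor Cxcr4 was also at 0, and Ackr3, which binds the same ligand, had 0.925, 1.32 and 1.90.

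Receptors of TGF-beta and BMP, Wnt, and cytokines were present in part, against 40.4% of all genes. They included 7 of 13 TGF-beta and BMP receptors (53.8%). Without CTL 1 it was 10 of 13, against 10024 of all 22972 genes. Of 19 Wnt and Notch receptors, 9 were present (47.4%), a share near that of all genes. So was the share of the cytokine, interferon and death receptors, 12 of 27 (44.4%). Eng, a co-receptor best known from endothelium, had 164, 152 and 142 FPKM and Acvrl1, its partner there, had 34.1, 22.6 and 17.1, although the endothelial markers were near 0. Tgfbr2 had 8.66, 6.53 and 7.15 and Tgfbr1 had 0.590, 2.03 and 2.57. Lrp5 and Fzd7 led the Wnt receptors at 17.7, 19.7 and 20.7 (Lrp5) and 10.8, 17.2 and 19.7 (Fzd7), and Notch2 was the Notch gene with the highest mean, at 1.55, 4.25 and 5.22. Ltbr, the lymphotoxin receptor, had 98.9, 100.5 and 79.7 and Tnfrsf1a, the main TNF receptor, had 71.7, 73.6 and 69.3. The chains of the type I interferon receptor were present, Ifnar1 at 14.8, 18.5 and 18.8 and Ifnar2 at 26.8, 20.97 and 17.03, as were those of the interferon gamma receptor, Ifngr1 at 2.84, 3.23 and 3.74 and Ifngr2 at 18.7, 28.4 and 27.96. The death receptor Fas was near 0 at 0, 0.0139 and 0.0245.

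Of 25 integrin subunits, 7 were present (28%, against 40.4% of all genes). Itgb1, the common beta chain, had 23.5, 34.6 and 47.4 FPKM, and Itgb5 had 37.9, 30.7 and 33.4. The alpha chains included Itga6 at 5.89, 11.4 and 16.2, Itgav at 3.23, 11.2 and 11.4, Itga5 at 12.3, 6.49 and 5.08 and Itga4 at 0.683, 3.35 and 3.51. CTL 1 was lowest for Itgb1, Itga6, Itgav and Itga4 and highest for Itga5, Itga9, Itgb3 and Itgb5. Of 46 nuclear receptors, 19 were present (41.3%, near the share of all genes), led by Nr1h2 (LXR beta) at 73.1, 58.6 and 50.1. Rxra, the common partner of these receptors, had 30.8, 32.3 and 34.9 and Rarg, a retinoic acid receptor, had 29.5, 28.1 and 27.5. The steroid receptor Pgr was listed at 0, Esr1 had 0.0148, 0.00781 and 0.0420, and the glucocorticoid receptor Nr3c1 had 0.887, 2.54 and 3.12.

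**Figure D3:**
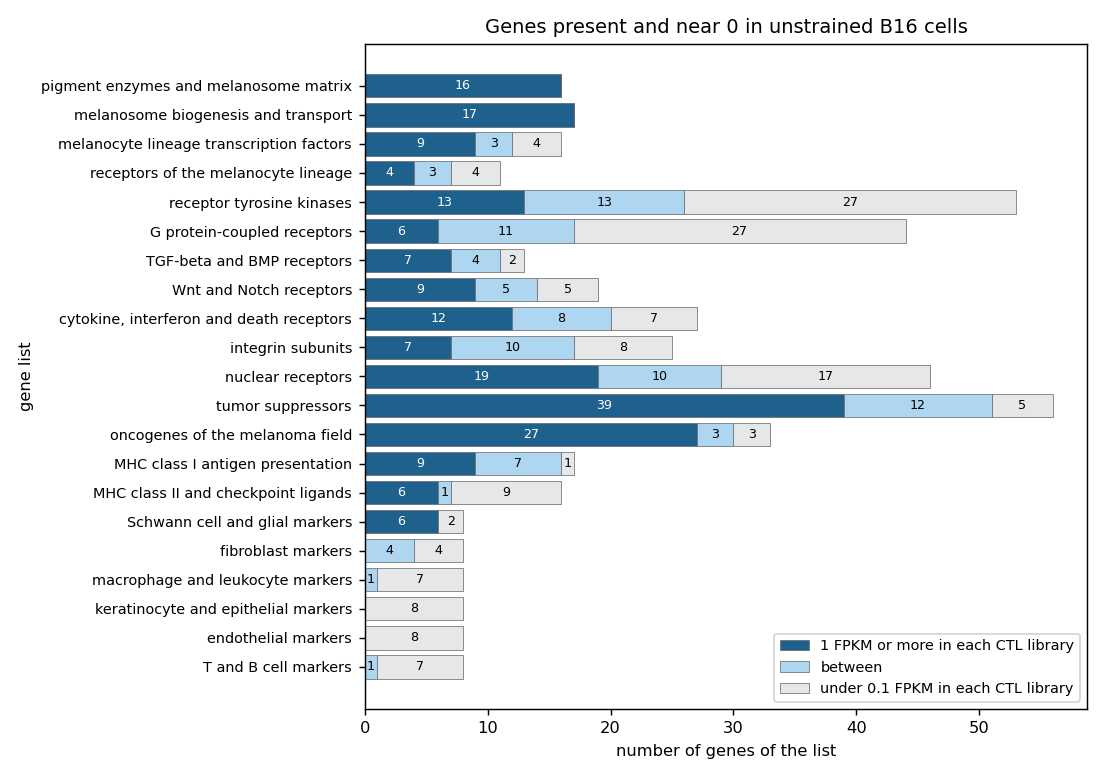
Number of genes of each list present (1 FPKM or more in each CTL library), near 0 (under 0.1 FPKM in each) and between, as stacked bars that start at 0. All 16 pigment genes and all 17 melanosome genes are present, against 13 of 53 receptor tyrosine kinases and 40.4% of all genes. The lists of other cell types, apart from glia, have 0 present genes.

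Most tumor suppressor genes were present, and the Cdkn2a locus was the clearest exception. Of 56 listed genes, 39 were present in the 3 CTL libraries and 48 without CTL 1, against 40.4% of all genes. Cdkn2a (chr4:89274471-89294653, minus strand), which encodes the cell cycle inhibitor p16INK4A and p19ARF, and its neighbor Cdkn2b (chr4:89306299-89311039, minus strand), which encodes p15INK4B, were listed at 0 in all 9 libraries. Mtap (chr4:89137122-89181081, plus strand), a gene of methionine salvage and the next protein-coding gene on the other side of Cdkn2a, was present at 36.8, 61.9 and 75.9. Of 40 genes of the files within 1 Mb (1000000 bases) of Cdkn2a, 3 were present, against 40.4% of all genes. A value of 0 in all 9 libraries was listed for 21 of the 40, against 6489 of all 22972 genes. The others present were Focad at 6.09, 6.50 and 7.30 and Klhl9 at 3.06, 8.13 and 9.44. Many of the other genes there belong to the type I interferon cluster, whose Ifna genes, Ifnb1 and Ifne were listed at 0. Mtap, Focad and Klhl9 were chosen for this after their values were seen.

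Other inhibitors of the cell cycle were present. Cdkn1a, which encodes p21, had the highest mean of the list at 159, 164 and 172 FPKM, and Cdkn1b had 17.4, 31.7 and 23.4. Trp53, which encodes p53, had 52.8, 77.6 and 75.5, and its target Bax had 164, 217 and 201, while the targets Pmaip1 and Perp were at or near 0. Rb1 had 1.11, 1.45 and 1.78 and its relatives Rbl1 and Rbl2 had 3.89, 9.81 and 11.1 (Rbl1) and 8.19, 8.41 and 8.23 (Rbl2).

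Among the suppressors of RAS signaling in the list, Nf1, a RAS GTPase-activating protein lost in many melanomas, had 2.76, 4.60 and 4.75 FPKM, Rasa1 had 0.630, 2.93 and 4.31 and Spred1, a partner of the Nf1 product, had 4.69, 9.48 and 10.9. Nf2, which encodes merlin of the Hippo pathway, was higher at 49.4, 35.2 and 41.9. Stk11 had 31.7, 29.6 and 35.04 and Tsc2 had 21.9, 18.98 and 19.04. Among the chromatin regulators, Smarcb1 and Smarca4 reached 72.5, 93.2 and 86.2 (Smarcb1) and 58.9, 59.4 and 73.6 (Smarca4), Bap1 reached 29.6, 29.4 and 30.98, and Arid2 had 2.17, 4.18 and 4.87.

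The 9 tumor suppressor genes present only without CTL 1 were genes of low level. Pbrm1, a chromatin remodeling subunit, had 0.334, 3.78 and 4.44. Atm, the kinase of DNA break signaling, had 0.127, 1.09 and 1.89. Apc, the scaffold that degrades beta-catenin, had 0.536, 2.33 and 2.71. Of 47 suppressor genes with a mean of 1 FPKM or more, CTL 1 was below both other libraries for 35 and above both for 6, among them Brca1 at 8.05, 4.31 and 5.9998. The list has long transcripts, with a median of 4925 nt against 3371 nt over all genes. Cdh1, the epithelial cadherin, had 0.0204, 0 and 0.0174, Dcc was near 0, and Wt1 was listed at 0.

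Of 33 oncogenes of the melanoma field, 27 were present (81.8%, against 40.4% of all genes). Akt1, a kinase downstream of PI3K, led and was even at 527, 519.7 and 524 FPKM. Ctnnb1 (beta-catenin) had 285, 236 and 294 and Cdk4, the partner of cyclin D1, had 212, 238 and 241. The MAPK cascade was present at every tier. At its top, Nras had 9.11, 13.1 and 16.1. The RAF kinase gene Braf was low at 1.51, 1.82 and 2.37. Map2k1, which encodes MEK1, had 54.4, 49.4 and 51.8, and Mapk3, which encodes ERK1, had 146, 123 and 93.99. Ccnd1 (cyclin D1) had 29.02, 58.1 and 72.8 and Myc had 9.90, 26.6 and 31.3, both lowest in CTL 1. Tert, the catalytic subunit of telomerase, was at 0.174, 0.171 and 0.283, and Mycn was near 0. Of the survival genes, Mcl1 had 46.8, 43.3 and 48.5 and Bcl2l1 had 30.4, 30.9 and 30.9, and Bcl2, a pigment cell survival gene and target of MITF, had 0.320, 0.945 and 1.01.

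Of 17 genes of MHC class I antigen presentation, 9 were present (52.9%, against 40.4% of all genes), and the levels differed widely. Calr, a chaperone shared with other proteins of the ER, led at 449, 659 and 613 FPKM. B2m, the light chain of MHC class I, had 324, 269 and 255 FPKM, but the heavy chain genes H2-K1 and H2-D1 had 9.51, 6.02 and 3.75 (H2-K1) and 39.2, 21.8 and 25.4 (H2-D1). The peptide transporter Tap1 had 3.53, 1.85 and 2.25 and the immunoproteasome genes Psmb8 and Psmb9 had 0.227, 0 and 0 (Psmb8) and 0.330, 0.0849 and 0.181 (Psmb9). Nlrc5, the class I transactivator, was at 0.0672, 0.105 and 0.137. The class II genes H2-Aa, H2-Ab1 and H2-Eb1 were near 0. Cd274, which encodes PD-L1, had 1.54, 1.19 and 1.10, and Lgals9 led the checkpoint ligands at 58.5, 41.4 and 42.1. MHC class I genes are near-identical in part, so their split is uncertain.

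The next question was which functions varied between the control libraries. It was asked of 10098 genes with a mean of 1 FPKM or more in CTL, on log2(FPKM + 1), and no test was made, since 3 libraries of 1 group allow none. The median range over the 3 libraries was 0.43 on this scale, against 0.14 between CTL 2 and CTL 3 alone. The median CV was 17.8% over the 3 libraries and 8.02% over CTL 2 and CTL 3. The range was over 1 for 1431 genes (14.2%), and CTL 1 was the library farthest from the others in 1355 of these. Between CTL 2 and CTL 3 it was over 1 for 41 genes. CTL 1 was above both others for 3383 genes (33.5%) and below both for 5465 (54.1%). The median deviation over all genes from the mean of the 3 libraries was -0.08 in CTL 1, 0.03 in CTL 2 and 0.07 in CTL 3. These shares and medians over all genes are the background for the lists below. The lists were chosen with earlier results of these data known, so their order is a description only.

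The integrated stress response was the list farthest above in CTL 1 by its median deviation. The median gene of the 16 ATF4 and CHOP targets with a mean of 1 FPKM or more deviated from the mean of the 3 libraries by 0.79 in CTL 1, by -0.43 in CTL 2 and by -0.37 in CTL 3, and 14 of 16 were highest in CTL 1. Atf4 itself had 337, 126 and 132 FPKM. Ddit3, which encodes CHOP, had 137, 24.7 and 18.5, a CTL 1 value 6.32 times the mean of CTL 2 and CTL 3. Trib3, a pseudokinase induced by both factors, had 153, 21.2 and 19.4, or 7.54 times that mean. Atf5 had 205, 40.1 and 35.8, and Chac1, a glutathione-degrading enzyme with the CARE shown above, had 48.1, 13.5 and 10.3. Asns, the asparagine synthetase, had 310.1, 137 and 138, and Ppp1r15a, which directs the phosphatase that ends the response, had 25.1, 6.40 and 6.80. Nupr1, a small stress-induced chromatin protein, had 21.7, 3.29 and 4.24.

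Other members of the list did not follow. Slc7a11, the cystine transporter with its own CARE, went the opposite way at 1.69, 3.49 and 7.42. Cebpb and Cebpg, partners of ATF4, were level at 13.5, 13.1 and 13.2 (Cebpb) and 2.75, 2.55 and 2.76 (Cebpg). Genes of amino acid synthesis and transport deviated by 0.48 in CTL 1, with 15 of 21 highest there. Slc3a2 and Slc7a5, the chains of the large neutral amino acid transporter, had 265, 123 and 148 (Slc3a2) and 129, 57.05 and 66.3 (Slc7a5). Mthfd2 of mitochondrial folate metabolism had 186, 70.8 and 89.4 and Phgdh, the entry to serine synthesis, had 405, 298 and 305. The aminoacyl-tRNA synthetases were mixed, with 9 of 20 highest in CTL 1, Sars at 523, 259 and 232 and Eprs at 8.76, 22.8 and 32.3.

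The list of ER chaperones and the unfolded protein response went in the opposite direction. Its median deviation was -0.31 in CTL 1, with 16 of 19 genes lowest there. Hspa5, which encodes BiP, had 51.5, 161 and 168 FPKM. Hsp90b1, the ER form of HSP90, had 11.5, 74.04 and 96.5, and Canx had 31.3, 107 and 126. Xbp1 was level at 47.7, 48.4 and 47.8. The cytosolic heat shock chaperones deviated by -0.32 in CTL 1, with 17 of 18 lowest there. Hsp90aa1, the inducible HSP90, had 5.32, 70.9 and 116, whereas the constitutive Hsp90ab1 had 920.2, 1117 and 1271. The proteasome list deviated by -0.26, with 31 of 35 lowest in CTL 1, and the NRF2 antioxidant genes by -0.33, with 16 of 23 lowest there.

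The lists of cell division were the farthest below in CTL 1. All 44 genes of DNA replication and S phase were below both other libraries, with a median deviation of -0.76 in CTL 1, 0.31 in CTL 2 and 0.42 in CTL 3. Pcna, the sliding clamp of the polymerases, had 107, 282 and 262 FPKM. Rrm2, a ribonucleotide reductase subunit, had 39.4, 128 and 139, and Mcm2 of the replicative helicase had 98.5, 204 and 217. Ccne2, a cyclin of the G1/S transition, had 0.485, 5.43 and 6.44. Of 47 mitosis and G2/M genes, 46 were below both, with a median deviation of -0.85 in CTL 1. Top2a, the topoisomerase that untangles chromosomes, had 4.23, 36.4 and 48.8. Mki67, which encodes the proliferation marker Ki-67, had 0.107, 3.11 and 4.58, and Cdk1 had 17.1, 48.6 and 43.6. Pttg1, the securin, was the exception at 28.4, 24.5 and 18.4. Of the genes that act as ERK outputs, 9 of 10 were below both in CTL 1. They included Dusp6, a phosphatase of ERK, at 20.6, 36.01 and 38.5, Spry2 at 2.76, 7.16 and 7.09 and Etv5 at 0.433, 2.997 and 3.50.

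**Figure D4:**
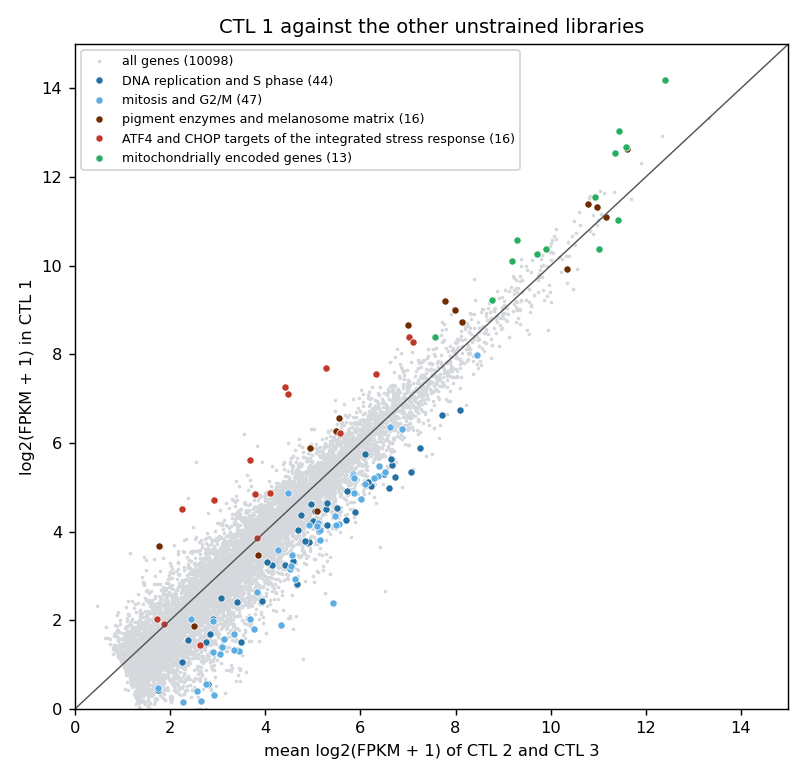
Each of 10098 genes by its mean log2(FPKM + 1) in CTL 2 and CTL 3 (x axis) and its value in CTL 1 (y axis), with 5 lists in color and the line of equal values. All 44 S phase genes and 46 of 47 mitosis genes lie under the line, and 14 of 16 ATF4 and CHOP targets, 11 of 13 mitochondrially encoded genes and 10 of 16 pigment genes lie above both other libraries.

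A further group of lists was high in CTL 1. The pigment list deviated by 0.47 in CTL 1, by -0.27 in CTL 2 and by -0.19 in CTL 3. The lysosomal genes deviated by 0.33 in CTL 1, with 26 of 31 highest there. Ctsd, the protease cathepsin D, had 2041, 1589.5 and 1317 FPKM, Cd63, a tetraspanin of lysosomes and melanosomes, had 1543, 1118 and 1082, and Smpd1, the acid sphingomyelinase, had 104, 45.4 and 41.1. The interferon-stimulated genes deviated by 0.38, with 14 of 19 highest in CTL 1. Ifi27 had 124, 43.1 and 42.8, Ifit3 had 6.03, 1.59 and 1.89 and Usp18, a brake on interferon signaling, had 4.37, 1.29 and 1.07. Cxcl10 and Ifit1 went the other way at 0.916, 3.97 and 6.93 (Cxcl10) and 0.0614, 0.954 and 0.766 (Ifit1).

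Some functions varied less than the median gene. The cytosolic ribosomal protein genes had a median deviation of 0.02 in CTL 1 and a median range of 0.33. The mitochondrial ribosomal proteins had a median range of 0.25 and the BCL2 family one of 0.21, each under the 0.43 of all genes. The oncogene list had 0.32. Immediate early genes had a median range of 0.35, with a median deviation of -0.00359 in CTL 1 and Jun at 13.2, 10.9 and 13.9. Egr1, at 0.361, 0.325 and 0.317, was under the minimum mean of 1 FPKM and not part of that median. The actin cytoskeleton list was mixed, with a median range of 0.4455, slightly over that of all genes. Actg1 was even at 1132, 1166 and 1257, while Actb had 376, 966 and 1011. The nuclear-encoded subunits of the respiratory chain deviated by -0.03 in CTL 1, with a median range of 0.40. In contrast, the 13 genes of the mitochondrial genome varied more than the median gene. They deviated by 0.55 in CTL 1, with a median range of 0.91.

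**Figure D5:**
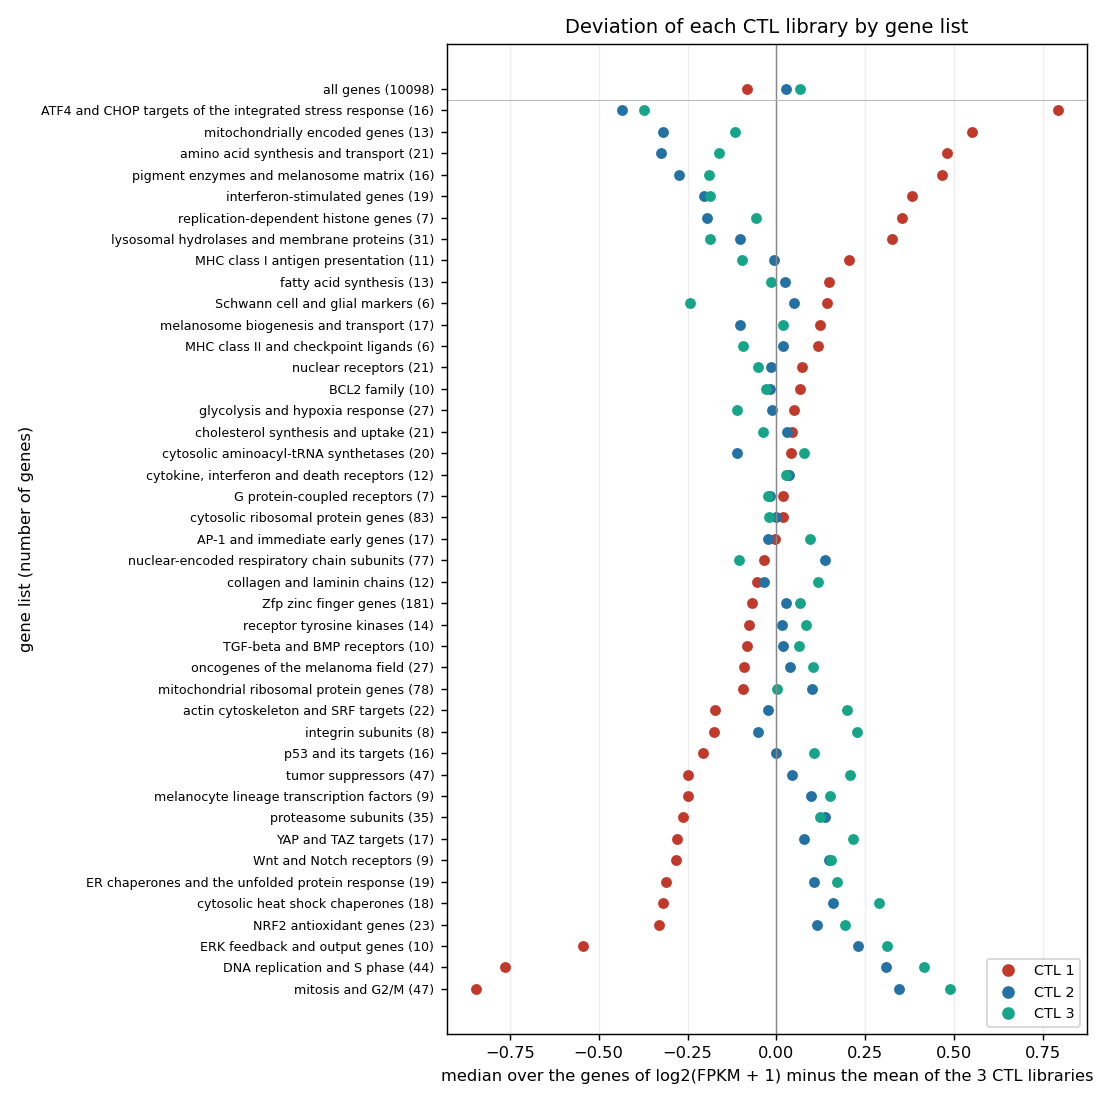
Median deviation of each CTL library from the mean of the 3 libraries, on log2(FPKM + 1), for each gene list, with the number of genes in parentheses and all 10098 genes in the top row. CTL 1 runs from 0.79 (ATF4 and CHOP targets) to -0.85 (mitosis and G2/M), with CTL 2 and CTL 3 on the opposite side at both ends.

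The single genes farthest apart belonged to the same lists in part. Among genes averaging 5 FPKM or more where the other libraries differed by under 0.5 on log2(FPKM + 1), the 10 farthest above in CTL 1 were Trib3, Ddit3, Atf5, Phyhd1, Nupr1, H1f2, Chac1, Oca2, Cyb5r2 and Ppp1r15a. The differences ran from 2.86 for Trib3 to 1.78 for Ppp1r15a. The 10 farthest below included Ssb, Top2a, Dkc1, Septin7, Hsp90b1, Dek, Atad2, Alyref and Matr3. The lowest was Ssb, which encodes the La protein that binds new RNA polymerase III transcripts, at 1.19, 23.5 and 30.6 FPKM, a difference of -3.67. Dkc1, the pseudouridine synthase dyskerin, had 0.278, 6.68 and 9.41, and Matr3, a nuclear matrix protein, had 0.842, 8.39 and 12.05.

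The same rule was applied to CTL 2 and CTL 3, where fewer genes were eligible (4647 and 5005, against 6834 for CTL 1), and some of its genes are named here. In CTL 2, Gm20390 was listed at 33.8 FPKM and at 0 in CTL 1 and CTL 3. Dhrs3, a retinal reductase, had 3.33, 29.9 and 2.89. Fdx2, a mitochondrial ferredoxin, was low at 21.3, 3.86 and 23.6. In CTL 3, Ppia, which encodes cyclophilin A, was high at 971, 1149 and 1986, and Masp1, a complement protease, at 5.65, 4.27 and 12.9. Ptgds, a prostaglandin D synthase, was low in CTL 3 at 1128, 890.0 and 501, along with Cited1.

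Base composition and transcript length moved with these differences. Over 9663 genes with a value (95.7%), the deviation of CTL 1 correlated with GC content at r = 0.44 and with log2 length at -0.22, against -0.47 and 0.31 in CTL 3 and -0.25 and 0.03 in CTL 2. These r values run over genes of the same libraries. In the fifth of genes with the longest transcripts (5176 to 40378 nt), the median of CTL 1 minus the mean of CTL 2 and CTL 3 was -0.34, and in the shortest (204 to 1974 nt) it was -0.00709. After removal of the GC trend from every library, the median deviation of CTL 1 was 0.89 for the ATF4 and CHOP targets, 0.68 for the pigment list, 1.25 for the mitochondrially encoded genes, -0.61 for S phase and -0.70 for mitosis and G2/M. With the length trend removed these were 0.84, 0.59, 0.52, -0.62 and -0.74. Quantile normalization lowered the pigment list to 0.28 and the mitochondrially encoded genes to 0.34, and gave 0.80, -0.68 and -0.76 for the other lists. The tumor suppressors fell closer to 0, from -0.25 to -0.12 without the GC trend, -0.03 without the length trend and -0.13 under quantile normalization. The part of base composition and length in the list differences was not tested beyond this.

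Several of the same lists moved in libraries of the other groups. Relative to the mean of CTL 2 and CTL 3, the median ATF4 and CHOP target was at 1.19 in CTL 1, 0.96 in MS 3 and 1.21 in Blebb. 2, and between -0.07 and 0.34 in the other MS and Blebb. libraries. The S phase list was at -1.14 in CTL 1, -0.77 in MS 3 and -1.13 in Blebb. 2, and between -0.06 and -0.00187 in the others. The pigment list was at 0.70, 0.65 and 0.76 in those libraries and between -0.19 and 0.10 in the others. One library of each group thus lay on the same side for the ATF4 and CHOP, S phase and pigment lists. The mitochondrially encoded list was at 0.83 in CTL 1, 1.21 in MS 3 and 0.45 in Blebb. 2. It was at 0.44 in MS 2 and between 0.07 and 0.25 in the others, so Blebb. 2 did not stand apart from MS 2 for it.

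The baseline was last set against the strained and the blebbistatin-treated cells, gene by gene. The fit in limma over 10109 genes averaging 1 FPKM or more called 0 genes (0%) at an adjusted p under 0.05 in MS against CTL and 0 genes (0%) in Blebb. against CTL. The smallest adjusted p was 1 in both, and 16 and 9 genes had an unadjusted p under 0.05. No member of the lineage, receptor or tumor suppressor lists was called (0 in each list). The median difference of the pigment list was -0.15 in MS against CTL and 0.00610 in Blebb. against CTL, beside -0.00182 and -0.01 over all genes. For Mitf, the difference was 0.24 (SE 0.52) in MS against CTL and -0.32 (SE 0.52) in Blebb. against CTL. With CTL 1 left out, 0 genes were called in either comparison, but MS 3 and Blebb. 2 stayed in that fit. Without any effect, a share near 0.05 of the 10109 genes would be expected to have an unadjusted p under 0.05. The counts of 16 and 9 were far below that share, so the fit was conservative here, and the cause was not tested. These p values do not show that the groups were alike. Both comparisons use the same CTL libraries.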

How the data were processed

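RNA from B16 cells was harvested with TRIzol and made into libraries with the SMARTER mRNA-Seq kit, and 9 libraries were sequenced by Illumina. The authors deposited 1 FPKM value per gene and library, that is, values already scaled for transcript length and mapped fragments. In the file of CTL 1 the values stand under the sample's name and no unit is given, and they were taken as FPKM because their sum and range match the other files. The submitters' processing notes name the build GRCm38 (mm10); the aligner, counting program and annotation are not given in the sources used here. The depth is unknown, and errors are SDs over libraries.

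The 3 control libraries were described by FPKM. A gene was present at 1 FPKM or more and near 0 under 0.1 FPKM in each. Variation was measured on log2(FPKM + 1) over genes averaging 1 FPKM or more in CTL. Groups were compared in limma 3.58.1 under R 4.3.3 (lmFit on 3 groups, eBayes with trend, genes averaging 1 FPKM or more in the 9 libraries, two-sided, Benjamini-Hochberg adjustment, threshold 0.05), and the fit was tested on simulated data. GC content and length came from the longest GENCODE M21 transcript of each symbol, and promoters from RefSeq (GRCm38.p6). Motifs were searched on both strands.

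The genes named were the 25 with the highest mean, members of 48 gene lists, and in each library the 10 farthest above and below the other CTL libraries among genes averaging 5 FPKM or more where those others differed by under 0.5. Some of these genes are not reported here. Mtap, Focad and Klhl9 were added after their values were seen. The members and lists were chosen with earlier results of these data known, and some list symbols were updated to the names in the files. The alternatives were other minima, a pseudocount of 0.1, rescaling, median-of-ratios factors, quantile normalization, removal of the GC trend, a replicate block and each library left out. Removal of the length trend and a count of genes with a symbol only were added after seeing the data.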

Additional observations from a re-analysis of the deposited data

How the results depend on the processing

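The number of present genes was 9291. It ran from 8185 at a minimum of 2 FPKM to 10230 with each library rescaled to the same sum. That sum was larger than the summed FPKM of any CTL library, so rescaling raised the values and lowered the effective minimum. At a minimum of 0.5 FPKM the number was 10170, so the 10230 does not show the effect of equal sums alone. The number was 9016 among genes with a symbol and 9338 to 10024 with each CTL library left out. The leading 25 genes held 18.7% of the summed FPKM as a mean over the CTL libraries. In each alternative the leading 25 were chosen anew. They held 16.2% of the remaining sum without the mitochondrially encoded genes and 16.4% to 19.9% with each CTL library left out. The median range of 0.43 was 0.40 to 0.48 under the other settings and 0.14 to 0.37 with each CTL library left out, the lowest without CTL 1.

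The 0 genes called in each comparison with CTL stayed at 0 under each other pseudocount, minimum and scaling. With each library left out, the MS count ran from 0 to 1, the 1 being Gm49527 without MS replicate 2, and the Blebb. count was 0. With the replicate number as a block the counts were 0 and 0. Deviations of same-numbered libraries from their group means correlated at -0.785 to 0.835. The library that lay apart had a different number in each group (CTL 1, MS 3 and Blebb. 2). These correlations therefore cannot tell whether the numbers pair the samples.

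The median deviation of CTL 1 changed sign under some alternative in 15 of 42 lists, 11 of them within 0.1 of 0 as reported. Among those 11, the collagen and laminin chains ran from -0.12 to 0.25, the receptor tyrosine kinases from -0.10 to 0.13, the Zfp genes from -0.08 to 0.13, the TGF-beta and BMP receptors from -0.13 to 0.07 and the oncogenes from -0.09 to 0.06. The others of the 11 were the immediate early genes, cytokine receptors, tRNA synthetases, both ribosomal protein lists and the nuclear-encoded respiratory chain. The remaining 4 lay farther from 0. The integrin list went from -0.18 to 0.16 at a minimum mean of 5 FPKM, and the glial markers from 0.14 to between -0.0157 and 0.23 with CTL 2 or CTL 3 left out, the lowest without CTL replicate 3. The melanocyte transcription factors went from -0.25 to 4.67e-05 with the GC trend removed and to 0.00491 with the length trend removed, and the p53 list from -0.21 to 0.0108 with the GC trend removed. The cause was not tested. Without CTL 2 or CTL 3 a deviation is taken from the mean of 2 libraries, which lowers its size.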

Other observations

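Transcripts without a gene symbol were among the abundant ones in the unstrained cells. The files hold 1113 loci that carry only an assembler's number, and these held 1.39%, 1.35% and 1.29% of the summed FPKM in CTL 1, CTL 2 and CTL 3. The most abundant, MSTRG.1108, ranked 36th of all genes at 1826, 1298 and 940 FPKM, and MSTRG.17759 ranked 54th at 1323, 1040 and 884. MSTRG.14618 went the other way, at 242, 406 and 446. The files do not pair these loci with positions, so what they encode was not analysed here.

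Replication-dependent histone genes, whose transcripts mostly lack a poly(A) tail, were low, with 7 of 63 genes present (11.1%, against 40.4% of all genes). The most abundant was H1f2, a linker histone, at 59.98, 13.3 and 12.9 FPKM, and 6 of the 7 were highest in CTL 1, where all 44 S phase genes were lowest.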
